A study of Mus musculus with 6 samples.

Results

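Basement membranes are thin sheets of extracellular matrix that underlie epithelia and endothelia and surround muscle, fat and peripheral nerve. In the brain they wrap the vessels and form the outer limiting layer under the pia. A laminin network and a type IV collagen network are joined in them by nidogens and by heparan sulfate proteoglycans such as perlecan, and cells hold on to them through integrins and dystroglycan.

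The basement membrane genes described here are a list of 33 genes for these proteins, their binding partners and 1 receptor. They were chosen by name with earlier results of these data known, so their counts are a description and not an independent test. Of the 33, 29 had a probe on the array and 25 had at least 1 probe that was tested, which needed a detection p-value under 0.05 on 3 or more of the 6 arrays. These 25 stand against 9998 tested genes in all. Lama3, Lama5, Smoc2 and Frem2 had no probe under their symbol, and Col4a3, Col4a4, Col4a6 and Frem1 had probes that were too dim to be tested.

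The tissue was mouse brain tumour, 3 tumours of each of 2 genotypes, grown in SCID mice from transplanted cells and taken when neurological symptoms appeared. The Olig2_null tumours came from Olig2cre/cre;p53fl/fl;hEGFRvIII cells, which carry cre at both copies of the gene for the oligodendrocyte lineage factor Olig2. The Olig2_het tumours came from Olig2cre/+;p53fl/fl;hEGFRvIII cells, which keep 1 Olig2 allele without cre. Both groups share the floxed p53 alleles and the human EGFRvIII transgene, a truncated and constantly active EGF receptor of glioma. Both also share the SCID host, which lacks mature B and T cells and keeps its own vessels, glia, neurons and myeloid cells. Ages in the labels are 45, 50 and 47 days for replicates 1, 2 and 3 of either genotype. Whether separate lines of cells gave rise to the tumours within a genotype is not stated, and each p-value therefore rests on tumour-to-tumour spread that may be partly technical.

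Between 53.4% and 57.6% of probes were detected per array. The Olig2 probe read 6.41, 5.86 and 6.44 in Olig2_null replicates 1 to 3, against 7.76, 7.85 and 7.13 in Olig2_het replicates 1 to 3, on the log2 intensity scale used throughout (difference -1.34 ± 0.30, SE, n = 3 per group; limma adjusted p = 0.0555). Whether this probe lies in the part of Olig2 that cre replaces is not known. Olig2_null replicate 3 was the Olig2_null tumour nearest to the Olig2_het group. The arrays of Olig2_null replicates 1 and 2 correlated at 0.912 with each other. The array of replicate 3 correlated at 0.886 and 0.928 with those of Olig2_null replicates 1 and 2, and at 0.914 to 0.941 with those of the Olig2_het tumours. Counts without it are given beside those of the basement membrane genes and of the other gene lists, as alternatives that for the other lists were chosen after seeing the data. A tumour sample mixes transplanted and host cells, and in such bulk RNA more cells of a type and more RNA per cell cannot be told apart.

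Of the 25 tested basement membrane genes, 8 rose in the Olig2_null tumours and none fell (limma adjusted p under 0.05 over all 14606 tested probes). They were both nidogen genes, Nid1 (probe ILMN_2814005) and Nid2 (ILMN_2961933), and the type IV collagen genes Col4a1 (ILMN_2621643) and Col4a2 (ILMN_2822579). The others were the laminin genes Lamb1 (ILMN_1253659) and Lamc1 (ILMN_2974798), Col15a1 (ILMN_1222111) and Fras1 (ILMN_1227146). The 8 make up 32% of the 25, where 2.83% of all 9998 tested genes rose and 1.95% fell. Col15a1 and Fras1 were detected on all Olig2_null arrays and no Olig2_het array, so they entered the test only through the group in which they are high. Among probes detected on all 6 arrays, 5 of 18 basement membrane genes rose, where 2.97% of all such genes did. Of the other 17 genes, 14 had a positive and 3 a negative difference. The median difference of the 25 was 0.86 on the log2 scale and that of all tested genes 0.0028. For 14 of the 25 genes every Olig2_null tumour lay above every Olig2_het tumour, and for none did every Olig2_null tumour lie below. Over all tested genes these shares were 16.1% and 16.4%. Without Olig2_null replicate 3, 9 genes passed, the same 8 and Lamb2, where 5.96% of all genes rose. Without it the groups did not overlap for 14 genes higher and 1 lower, Lama1, where 23.5% and 24.4% of all genes did so. Without Olig2_null replicate 2 the count was 3, and without any 1 of the Olig2_het tumours it was 1.

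**Figure D1:**
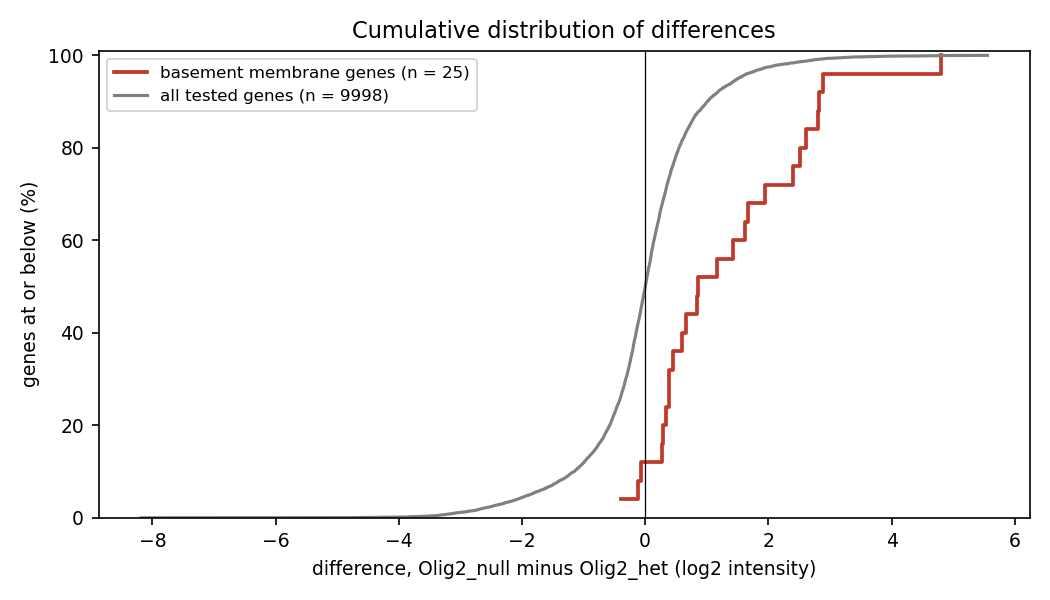
Cumulative percentage of genes (vertical axis) at or below a given difference, Olig2_null minus Olig2_het in log2 intensity (horizontal axis), for the 25 basement membrane genes (red steps) and all 9998 tested genes (grey line). The red steps lie right of the grey line, with 22 of the 25 genes above 0 and medians of 0.86 and 0.0028.

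Col4a1 and Col4a2 encode the chains of the most widespread type IV collagen trimer and lie head to head on opposite strands, each running away from a short stretch that holds both starts. Their windows of 250 bases before to 50 after the gene start (RefSeq, GRCm38.p6) are shown because both genes rose by nearly the same amount. The Col4a1 window is chr8:11312777-11313076 on the minus strand and the Col4a2 window is chr8:11312555-11312854 on the plus strand. The capitals mark the 78 bases that both windows hold, read on opposite strands.
Col4a1: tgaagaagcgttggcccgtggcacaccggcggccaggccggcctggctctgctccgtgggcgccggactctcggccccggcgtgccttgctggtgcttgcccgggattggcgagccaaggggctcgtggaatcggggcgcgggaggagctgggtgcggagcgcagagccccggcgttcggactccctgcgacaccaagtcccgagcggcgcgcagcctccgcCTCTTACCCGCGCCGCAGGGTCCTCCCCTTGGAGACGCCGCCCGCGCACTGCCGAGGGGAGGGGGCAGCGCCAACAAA
Col4a2: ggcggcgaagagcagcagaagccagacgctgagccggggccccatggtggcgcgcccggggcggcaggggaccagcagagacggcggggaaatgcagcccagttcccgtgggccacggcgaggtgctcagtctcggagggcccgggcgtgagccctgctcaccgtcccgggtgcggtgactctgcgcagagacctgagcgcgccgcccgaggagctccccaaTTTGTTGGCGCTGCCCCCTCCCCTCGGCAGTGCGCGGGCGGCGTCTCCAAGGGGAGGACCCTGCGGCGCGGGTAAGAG

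In this table the 2 starts overlap by 22 bases. Both strands of the windows were searched for GGGCGG, the GC box that Sp1 factors bind, for CCAAT, the box that NF-Y binds, for TATAAA and for the E-box CAGCTG. Counted from 0 at each gene's start, the Col4a2 window held CCAAT at -32 and GGGCGG at -192, -48 and 7. The Col4a1 window held CCAAT at -145 and GGGCGG at 9, and the last is the same site as the one at 7 in Col4a2. Windows were at hand for 5 of the 8 genes that rose: Col4a1, Col4a2, Nid1, Lamb1 and Col15a1. GGGCGG was in 4 of these 5 windows and in 35.7% of all 32851 windows, and CCAAT was in 4 of 5 and in 37.4%. TATAAA and CAGCTG were in none of the 5 and in 13.6% and 16.3% of all windows. Within the 5 windows no site of 1 motif overlapped a site of another. The Col4a1 and Col4a2 windows overlap, so the 5 are not independent. Of 31 windows of listed genes, called or not, GGGCGG was in 18, CCAAT in 10, CAGCTG in 4 and TATAAA in 0. A match is a run of letters and shows no binding.

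The nidogens, which link the laminin network to type IV collagen, held the largest difference of the list. Nid2 read 11.91, 11.68 and 10.84 in Olig2_null replicates 1 to 3, against 6.64, 6.89 and 6.48 in Olig2_het replicates 1 to 3. Every Olig2_null tumour lay far above every Olig2_het tumour, and replicate 3 was the lowest of the Olig2_null tumours. The group means were 11.48 ± 0.56 in Olig2_null and 6.67 ± 0.21 in Olig2_het (SD, n = 3 each), a difference of 4.81 ± 0.33 (SE) or 28.0-fold (limma adjusted p = 0.00433). Nid2 ranked 6 among the 9998 genes from the most positive difference down, and 9 by size in either direction. Without background correction its difference was 3.64, or 12.5-fold. Nid1 read 9.01, 9.22 and 10.18 in Olig2_null replicates 1 to 3, against 6.74, 6.97 and 6.29 in Olig2_het replicates 1 to 3, a difference of 2.80 ± 0.37 (SE) or 6.98-fold (limma adjusted p = 0.0173). The order of the Olig2_null tumours was the reverse of that for Nid2: replicate 3 was the highest for Nid1.

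Type IV collagen forms the second network. Col4a1 read 13.64, 12.38 and 12.85 in Olig2_null replicates 1 to 3, against 10.18, 10.55 and 9.49 in Olig2_het replicates 1 to 3. The difference was 2.88 ± 0.41 (SE) or 7.37-fold (limma adjusted p = 0.0200). Col4a2 read 12.24, 11.29 and 11.42 in Olig2_null replicates 1 to 3, against 8.79, 9.36 and 8.30 in Olig2_het replicates 1 to 3, and differed by 2.83 ± 0.38 (SE) or 7.11-fold (limma adjusted p = 0.0173). All Olig2_null tumours lay above all Olig2_het tumours for both genes of the head-to-head pair. The order of the tumours was the same for each: replicate 1, 3 and 2 from high to low in Olig2_null, and replicate 2, 1 and 3 in Olig2_het. Col4a5, an X-linked chain of other trimers, read 6.67, 7.72 and 7.32 in Olig2_null replicates 1 to 3, against 7.27, 7.17 and 6.10 in Olig2_het replicates 1 to 3. The groups overlapped, and the difference of 0.39 ± 0.42 (SE) did not pass (limma adjusted p = 0.616). The probes of Col4a3, Col4a4 and Col4a6, chains known from the kidney glomerulus and other specialised membranes, were not detected on any Olig2_het array.

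**Figure D2:**
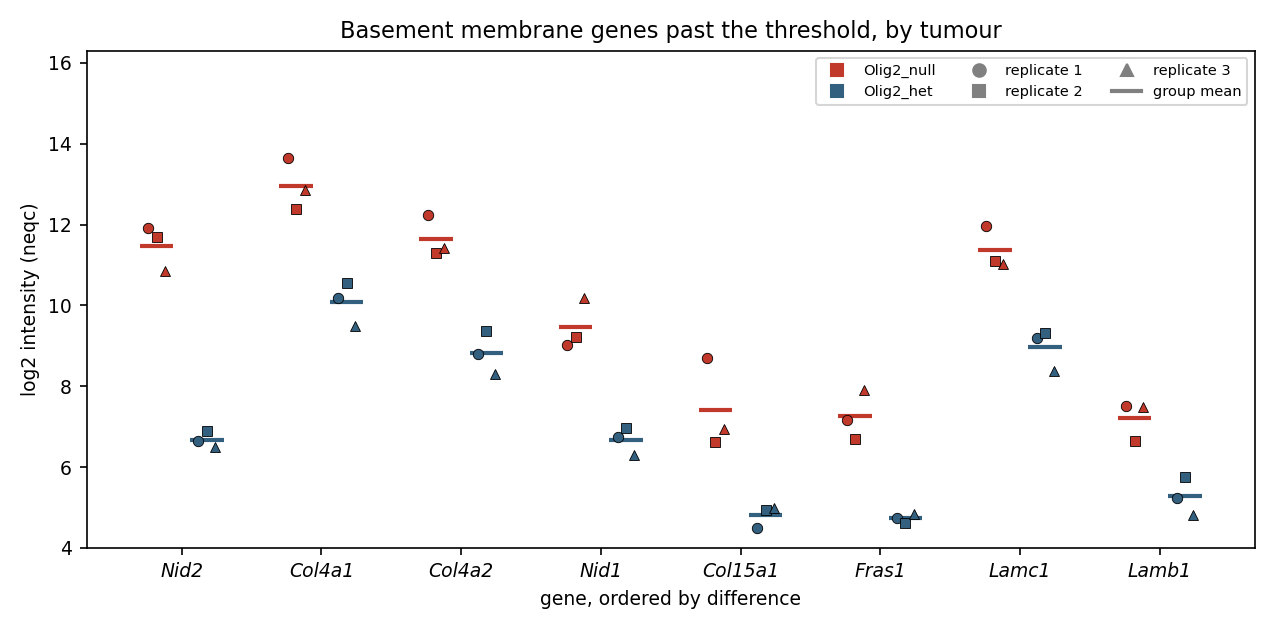
Log2 intensity (vertical axis) of the 8 basement membrane genes past the threshold (horizontal axis, largest difference left) in each of 3 Olig2_null (red) and 3 Olig2_het (blue) tumours, with replicates 1, 2 and 3 as circle, square and triangle and a bar at each group mean. For each gene all red points lie above all blue points, and the gap is widest for Nid2.

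A laminin is a trimer of 1 alpha, 1 beta and 1 gamma chain, and 2 of the 8 measured chain genes rose. Lamc1, the gamma chain of most laminins, read 11.97, 11.11 and 11.03 in Olig2_null replicates 1 to 3, against 9.20, 9.32 and 8.39 in Olig2_het replicates 1 to 3. Its difference was 2.40 ± 0.38 (SE) or 5.29-fold (limma adjusted p = 0.0267). Lamb1, the beta chain that pairs with it in the early laminins, read 7.51, 6.66 and 7.48 in Olig2_null replicates 1 to 3, against 5.24, 5.76 and 4.81 in Olig2_het replicates 1 to 3, and differed by 1.94 ± 0.36 (SE; limma adjusted p = 0.0365). Lamb1 was detected on 1 Olig2_het array, and its 3.85-fold difference was 3.37-fold with undetected values raised to the lowest signal of a detected probe on the same array. Without background correction Lamb1 differed 1.66-fold and did not pass (limma adjusted p = 0.0707). Lamb2, the beta chain of vascular and synaptic laminins, read 10.99, 9.26 and 8.71 in Olig2_null replicates 1 to 3, against 7.92, 7.997 and 8.16 in Olig2_het replicates 1 to 3. The groups did not overlap, but replicate 1 of Olig2_null stood well above the other tumours and the difference of 1.62 ± 0.56 (SE) did not pass (limma adjusted p = 0.129). Without Olig2_null replicate 3 it was 2.10 and passed (limma adjusted p = 0.0425), the only pass of Lamb2 in 16 alternatives. In that fit 5.96% of all genes rose. Without Olig2_null replicate 1 the Lamb2 difference was 0.96 and did not pass (limma adjusted p = 0.132).

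None of the 3 measured alpha chains, which carry most of the sites that cells bind, passed the threshold. Lama4, the alpha chain of endothelial laminin, read 6.02, 6.05 and 6.40 in Olig2_null replicates 1 to 3, against 6.06, 5.32 and 5.31 in Olig2_het replicates 1 to 3, a difference of 0.60 ± 0.29 (SE; limma adjusted p = 0.257). Lama2, the alpha chain of muscle and perivascular laminin, differed by 0.30 ± 0.48 and Lama1, the alpha chain of the embryo and the pia, by -0.39 ± 0.57 (SE; limma adjusted p = 0.744 and 0.719). Both were highest, within Olig2_null, in replicate 3, at 8.12 for Lama2 and 6.89 for Lama1, against replicates 1 and 2 at 6.71 and 6.40 for Lama2 and 5.19 and 5.13 for Lama1. Lama1 was detected on 1 Olig2_null and 2 Olig2_het arrays, and Lama4 on 3 Olig2_null and 2 Olig2_het arrays. The epithelial beta chain gene Lamb3 and the gamma chain gene Lamc3 differed by 0.33 ± 0.42 and 0.38 ± 0.39 (SE; limma adjusted p = 0.676 and 0.596). The tested Lamc3 probe was detected on 2 arrays of each group. The Lama, Lamb3 and Lamc3 probes were dim, with group means of 5.56 to 7.08, and small differences were not detectable against the spread between tumours.

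The proteoglycan group and the multiplexin collagens, whose cleaved ends include endostatin, were mixed. Col15a1, the vascular multiplexin, read 8.70, 6.62 and 6.94 in Olig2_null replicates 1 to 3, against 4.49, 4.94 and 4.99 in Olig2_het replicates 1 to 3. It was not detected on any Olig2_het array, so a lower bound is given for this processing: at least 4.25-fold higher in Olig2_null. The test was of the difference with undetected values as measured, 2.61 ± 0.54 (SE; limma adjusted p = 0.0467). Without background correction Col15a1 differed 2.08-fold and did not pass (limma adjusted p = 0.123). Col18a1, the precursor of endostatin, read 11.68, 11.91 and 12.14 in Olig2_null replicates 1 to 3, against 11.12, 10.75 and 9.57 in Olig2_het replicates 1 to 3. Its difference of 1.43 ± 0.42 and that of its other tested probe, 1.23 ± 0.30, did not pass (SE; limma adjusted p = 0.0927 and 0.0671), although neither probe's groups overlapped. Hspg2, the gene of perlecan, read 11.10, 11.06 and 10.43 in Olig2_null replicates 1 to 3, against 9.55, 10.03 and 7.98 in Olig2_het replicates 1 to 3. The groups did not overlap, Olig2_het replicate 3 lay lowest, and the difference of 1.67 ± 0.53 (SE) did not pass (limma adjusted p = 0.113). Agrn, the gene of agrin, which binds laminin and dystroglycan, was bright in both groups, at 13.18, 13.51 and 12.73 in Olig2_null replicates 1 to 3, against 13.40, 13.57 and 12.79 in Olig2_het replicates 1 to 3. Its difference was -0.12 ± 0.32 (SE; limma adjusted p = 0.860).

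Fras1 encodes a large matrix protein that forms a complex with the Frem proteins beneath epithelia and is altered in Fraser syndrome. It read 7.17, 6.69 and 7.90 in Olig2_null replicates 1 to 3, against 4.73, 4.62 and 4.84 in Olig2_het replicates 1 to 3, where it was not detected. With this processing it was at least 3.78-fold higher in Olig2_null, and at least 2.50-fold by its second probe. The tests were of the differences with undetected values as measured, 2.52 ± 0.34 and 1.91 ± 0.30 (SE; limma adjusted p = 0.0173 and 0.0256). Without background correction Fras1 differed 1.91-fold by its first probe and did not pass (limma adjusted p = 0.0551). In the main setting both of its tested probes passed the threshold. Npnt, the gene of nephronectin, an integrin ligand, differed by -0.07 ± 0.35 and Tinagl1, a gene of a secreted matrix protein, by 0.67 ± 0.31 (SE; limma adjusted p = 0.926 and 0.236). Tinagl1 was detected on 2 Olig2_het arrays.

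No matricellular gene passed the threshold. Sparc, whose product binds collagen and is abundant in glia and endothelium, read 14.38, 13.93 and 14.09 in Olig2_null replicates 1 to 3, against 13.37, 13.56 and 12.95 in Olig2_het replicates 1 to 3. Its 2 probes differed by 0.84 ± 0.27 and 0.99 ± 0.22 (SE; limma adjusted p = 0.109 and 0.0543), each with no overlap between groups. Smoc1, a related secreted protein gene, differed by 0.27 ± 0.38 (SE; limma adjusted p = 0.710). The fibulin genes Fbln1 and Fbln2, whose products bind laminin and nidogen, differed by 0.45 ± 0.34 and 1.17 ± 0.55 (SE; limma adjusted p = 0.458 and 0.236). Fbln2 read 9.45, 11.54 and 10.85 in Olig2_null replicates 1 to 3, against 9.60, 9.84 and 8.89 in Olig2_het replicates 1 to 3, so that Olig2_null replicate 1 lay within the range of Olig2_het. By the other tested Fbln2 probe, ILMN_3132949, the groups did not overlap, and the difference of 1.12 ± 0.40 did not pass (SE; limma adjusted p = 0.141). Dag1, the gene of the laminin receptor dystroglycan, read 11.87, 11.23 and 11.62 in Olig2_null replicates 1 to 3, against 10.81, 10.57 and 10.76 in Olig2_het replicates 1 to 3. The differences of its 2 probes, 0.86 ± 0.25 and 0.99 ± 0.23, missed the threshold (SE; limma adjusted p = 0.0946 and 0.0584). With array weights the first was 0.93 and passed (limma adjusted p = 0.0399), the only pass of Dag1 in 16 alternatives. That fit gave Olig2_het replicate 2 a weight of 7.3 and the other arrays 0.469 to 1.19, so it leans on 1 tumour.

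**Figure D3:**
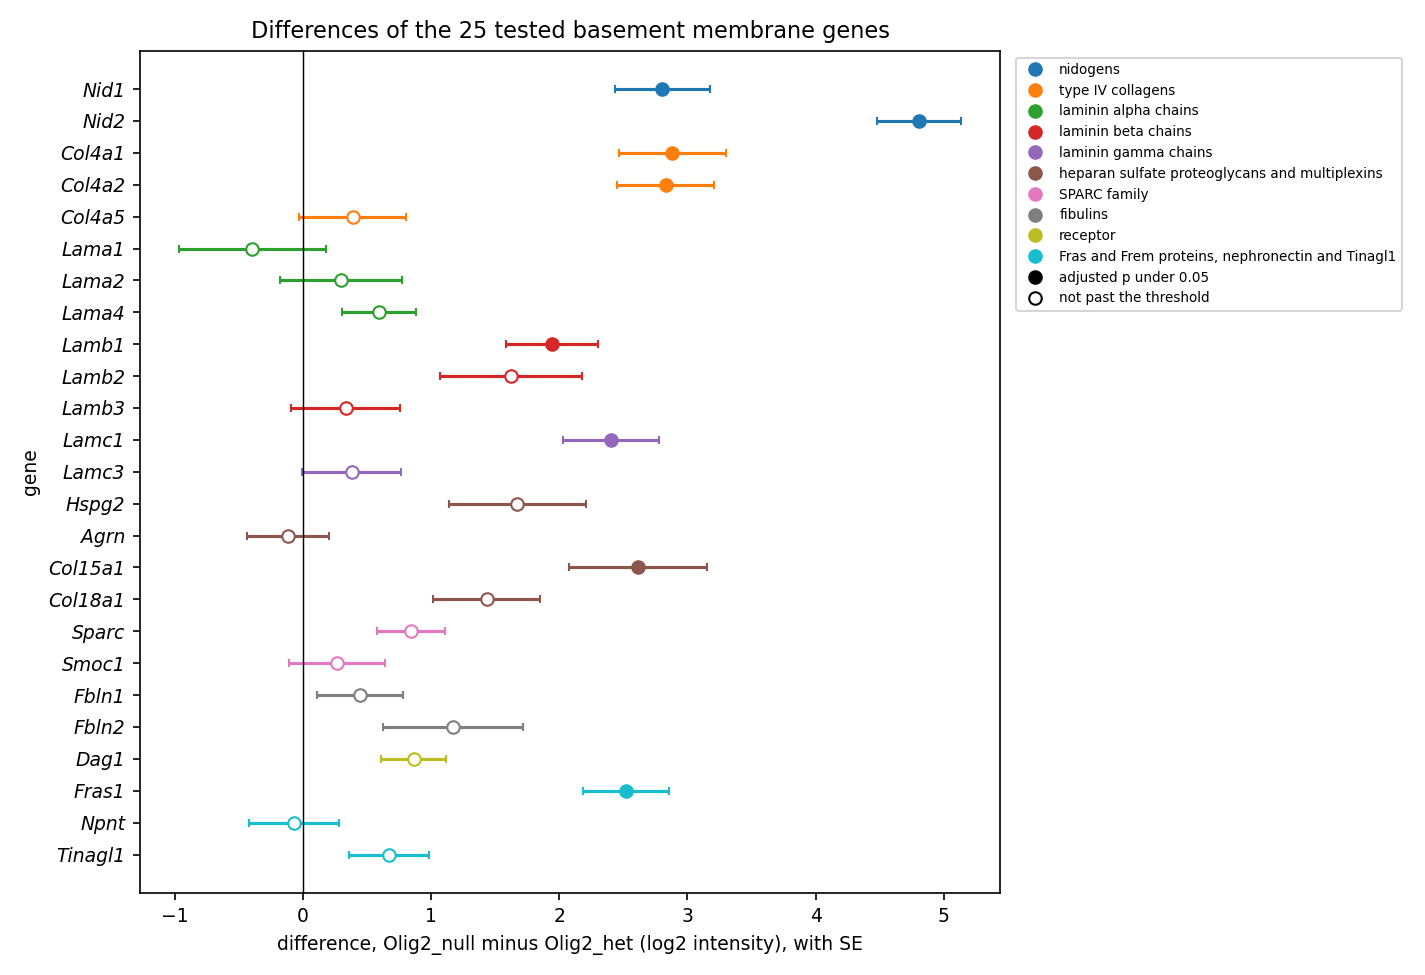
Difference with SE, Olig2_null minus Olig2_het in log2 intensity (horizontal axis), for each of the 25 tested basement membrane genes (vertical axis) by its brightest probe, coloured by role, with filled circles for genes past the threshold. Filled circles are found among the nidogens, collagens, the beta and gamma laminin chains, Col15a1 and Fras1, and the 3 alpha chains are open circles at -0.39 to 0.60.

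The members varied between tumours of 1 genotype as well. Among the 8 genes that rose, Olig2_null replicate 1 was the highest Olig2_null tumour for 6 and replicate 3 for 2, and replicate 2 was the lowest for 5. Over all 25 genes, Olig2_het replicate 3 was the lowest of the 6 tumours for 16. Olig2_null replicate 3 lay above all Olig2_het tumours for 22 of the 25 genes, replicate 2 for 18 and replicate 1 for 16. Averaged over the 25 genes, the deviation from the Olig2_het mean was 1.43, 1.18 and 1.37 in Olig2_null replicates 1 to 3, against 0.07, 0.23 and -0.30 in Olig2_het replicates 1 to 3. Olig2_null replicate 3, the Olig2_null tumour nearest to Olig2_het over all probes, lay with its own genotype for these genes. The genes were chosen with earlier results of these data known, so this place of replicate 3 is a description only.

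Leaving out 1 tumour at a time changed the calls of 7 of the 8 genes. Nid2 passed with any 1 tumour left out, with differences of 4.59 to 5.12 (limma adjusted p up to 0.0392). Without Olig2_het replicate 1, 2 or 3 in turn it was the one gene of the list to pass, while the share of all genes that rose was 0.06%, 0.05% and 0.26%. Without Olig2_null replicate 1 the list had 7 genes past the threshold, where 1.65% of all genes rose. Without Olig2_null replicate 2 it had 3, Nid2, Col4a1 and Fras1, where 0.72% of all genes rose. Over these fits the differences ran from 2.45 to 3.03 for Nid1, 2.54 to 3.17 for Col4a1, 2.54 to 3.10 for Col4a2, 2.10 to 2.58 for Lamc1, 1.71 to 2.22 for Lamb1, 1.97 to 3.02 for Col15a1 and 2.20 to 2.80 for Fras1, with limma adjusted p of up to 0.177.

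**Figure D4:**
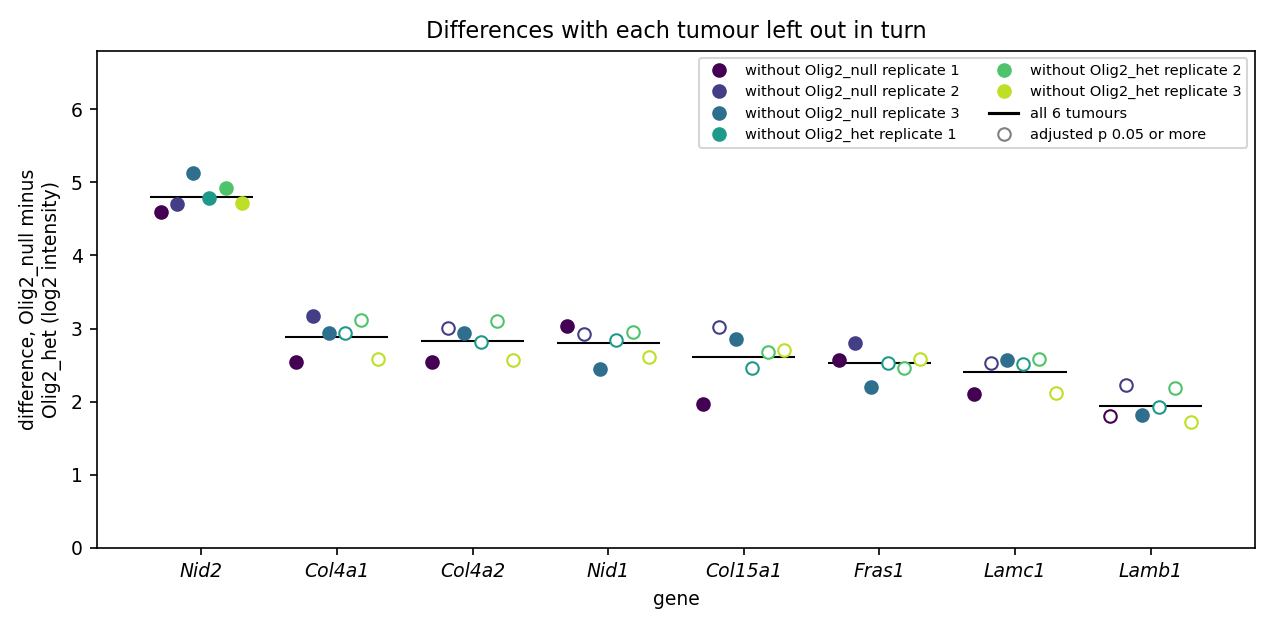
Difference, Olig2_null minus Olig2_het in log2 intensity (vertical axis), for each of the 8 genes (horizontal axis) with each of the 6 tumours left out in turn (coloured circles), beside the value with all 6 (black line). Open circles are values with an adjusted p of 0.05 or more, and Nid2 has filled circles throughout.

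Some genes of collagen maturation and of other matrix proteins rose too. Of 20 listed genes for collagen folding and crosslinking, 15 were tested, of which 3 rose and none fell, with a median difference of 0.81. Without Olig2_null replicate 3, 4 rose. Over all tested genes 2.83% rose with all 6 tumours and 5.96% without that tumour. Loxl1, a lysyl oxidase-like crosslinking enzyme, read 11.85, 11.15 and 9.98 in Olig2_null replicates 1 to 3, against 6.42, 6.93 and 7.58 in Olig2_het replicates 1 to 3, a 16.2-fold difference (limma adjusted p = 0.0172). Crtap, a partner of prolyl 3-hydroxylase, rose 4.03-fold, and Serpinh1, the collagen chaperone, 5.71-fold (limma adjusted p = 0.0310 and 0.0428). Of 17 other basement membrane and associated matrix genes, 9 were tested and 2 rose, and 2 rose without Olig2_null replicate 3. Mmrn2, a matrix protein gene of endothelium, rose 4.16-fold, and Colq, which encodes the collagen tail of acetylcholinesterase and was not detected on any Olig2_het array, rose at least 3.53-fold (limma adjusted p = 0.0368 and 0.0498). Colq was detected on all Olig2_null arrays, so it entered the test only through the group in which it is high. Of 16 receptor genes, 10 were tested and none passed, with a median difference of -0.28. Without Olig2_null replicate 3, 1 rose and 1 fell. The nearest were Itga1, an integrin subunit for type IV collagen, at 2.36 ± 0.51, and Itga7, a laminin-binding subunit, at -1.87 ± 0.43 (SE; limma adjusted p = 0.0523 and 0.0573).

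Some markers of vessel cells were higher in the same tumours. Of 16 listed endothelial genes, 13 were tested, of which 4 rose and none fell, or 5 rose without Olig2_null replicate 3. The shares of all tested genes that rose in these 2 fits were 2.83% and 5.96%. Differences of the 13 endothelial genes were positive for 10 and negative for 3, from -0.45 for the transporter gene Slco1a4 upwards, with a median of 1.26. Emcn and Pecam1, surface proteins of endothelium, differed 8.33-fold and 5.86-fold (limma adjusted p = 0.0146 for each). The summed linear level of the 13 genes was 10011 to 17212 intensity units in the Olig2_null tumours and 4443 to 6815 in the Olig2_het tumours, with no overlap. Of 13 listed pericyte and smooth muscle genes, 9 were tested and 1 rose (2 without Olig2_null replicate 3), the pericyte gene Rgs5 (6.57-fold, limma adjusted p = 0.0457), and the smooth muscle gene Acta2 differed by 1.47 ± 0.41 (SE; limma adjusted p = 0.0882). Differences of this list were positive for 6 and negative for 3, down to -0.96 for Cspg4, with a median of 1.13. Their summed level was 5289 to 10871 in Olig2_null and 2341 to 3073 in Olig2_het. The probes of the smooth muscle genes Tagln and Cnn1 were not detected on any array, and neither was that of the neuronal gene Snap25, so a probe without signal does not show that its gene is silent.

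Fibroblast and leptomeningeal markers did not follow this order. Of 12 listed, 9 were tested and none passed (1 fell without Olig2_null replicate 3), the Col1a2 probe was not detected on any array, and the summed level was 3867 to 20148 in Olig2_null and 6871 to 21352 in Olig2_het. Nearest to the threshold were Foxc1, a transcription factor gene of meninges and mural cells, with a difference of 2.03 ± 0.53 (SE; limma adjusted p = 0.0759), and the fibrillar collagen gene Col3a1. Col3a1 was not detected on any Olig2_het array and was at least 1.63-fold higher in Olig2_null (limma adjusted p = 0.0862). Astrocyte markers, whose endfeet adjoin the vascular basement membrane, had no gene past the threshold among 11 and a median of 0.07, and 3 of them fell without Olig2_null replicate 3. Of 9 tested microglia and macrophage genes 2 rose, Lyz2 and Ms4a7, or likewise 2 without Olig2_null replicate 3. In these 2 fits 2.83% and 5.96% of all tested genes rose. The summed microglia and macrophage level was 11449 to 28367 in Olig2_null and 5484 to 8339 in Olig2_het. Choroid plexus and ependymal markers had none of 8 past the threshold and a median of -0.93, and 3 of them fell without Olig2_null replicate 3. Over all 14606 tested probes, 1068 fell without that tumour and 258 with it.

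Neuron and oligodendrocyte markers ran the other way. All 9 tested neuron genes had negative differences with none past the threshold, and of 8 tested oligodendrocyte genes 3 fell. Without Olig2_null replicate 3, 6 neuron and 8 oligodendrocyte genes fell. In that fit 1068 of all 14606 tested probes fell, against 258 with all 6 tumours. The summed neuron level was 1031, 7480 and 22434 in Olig2_null replicates 1 to 3, against 23182, 40259 and 67237 in Olig2_het replicates 1 to 3. The mean deviation of the oligodendrocyte list was -5.11, -4.19 and -1.41 in Olig2_null replicates 1 to 3. Olig2_null replicate 3 was nearest to Olig2_het for these lists, while its mean over the basement membrane genes, 1.37, lay between those of the other Olig2_null tumours. Its mean over the collagen folding and crosslinking genes, 0.65, lay below the 1.42 and 1.35 of Olig2_null replicates 1 and 2. The part of the listed cell types in the basement membrane differences was not tested.

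**Figure D5:**
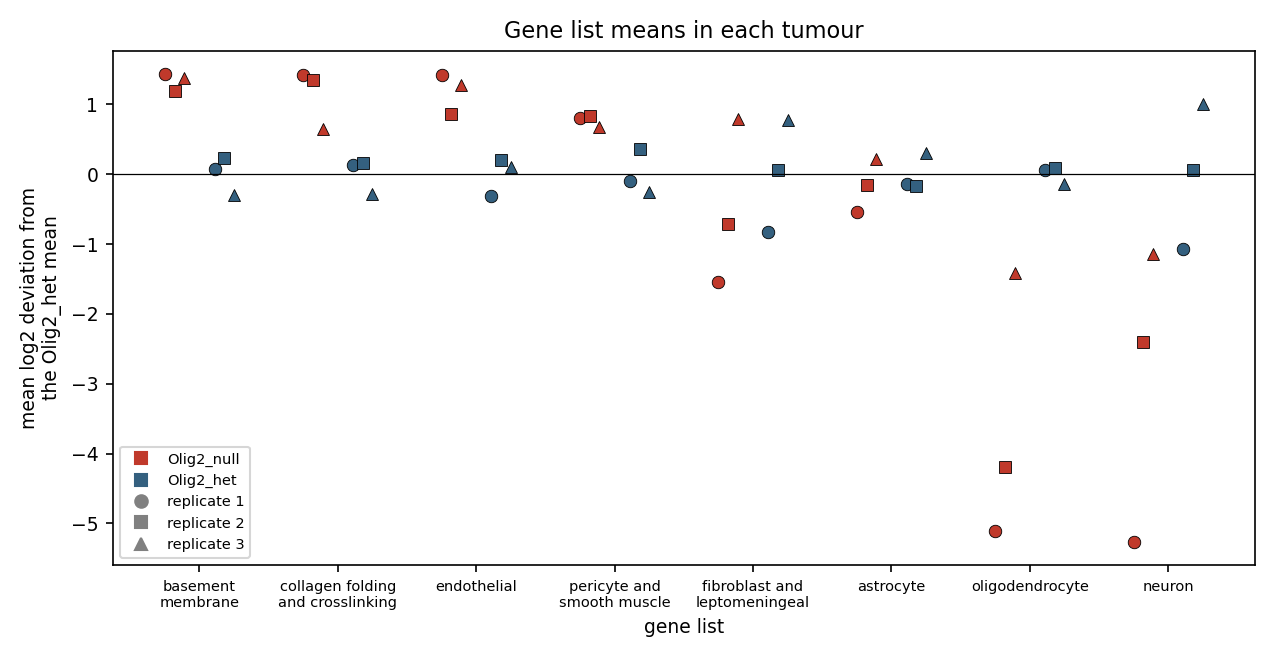
Mean log2 deviation from the Olig2_het mean (vertical axis) over the tested genes of 8 lists (horizontal axis) in each Olig2_null (red) and Olig2_het (blue) tumour, with replicates 1, 2 and 3 as circle, square and triangle. The Olig2_null tumours lie above all Olig2_het tumours for the basement membrane, collagen maturation, endothelial and pericyte lists, and below them for the oligodendrocyte and neuron lists.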

How the data were processed

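RNA of 6 tumours was hybridised to Illumina mouse bead arrays as biotin-labelled cRNA, per the labels' protocols. The authors deposited unnormalized linear signal intensity for 25697 probes, and a detection p-value per probe and array, per the file headers. The sources used here name neither scanner software nor genome build. A second deposited table of intensity values equalled the quantile-normalized signals, but with replicates 1 and 3 exchanged within each genotype in 4 of its 6 columns, so the ages of those tumours (45 or 47 days) are uncertain. Groups are not affected.

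Signals were corrected with the normexp model from detection p-values, offset by 16, quantile-normalized and taken to log2 (neqc, limma 3.58.1, R 4.3.3). Probes detected on at least 3 arrays (14606) were fitted across the whole table with genotype as the only term (lmFit, eBayes, two-sided, Benjamini-Hochberg adjusted p under 0.05). A gene was represented by its brightest tested probe. Names came from the platform annotation, which gave 1 symbol to 23978 probes, several to 0 and none to 1719, updated through GRCm38.p6 gene identifiers (23962 matched). The number of arrays limits the precision.

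Same-numbered tumours deviated from their group means with correlations of 0.19, 0.02 and 0.30, so numbers were not treated as pairs. All 33 genes were to be named, with up to 4 genes past the threshold (or 2 nearest) of each related list and 2 of each marker list, and Olig2. The members and lists were chosen with earlier results of these data known. Where a probe was undetected on every array of a group, the fold is the bright mean over, per array, the higher of the probe's signal and the lowest signal of a detected probe. Such a bound holds for this background correction and offset, and the p-value beside it tests the difference before undetected values were raised.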

Additional observations from a re-analysis of the deposited data

Results flagged for a closer look

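Probes of 4 basement membrane genes were too dim to be tested but gave a signal in an Olig2_null tumour above every Olig2_het tumour, with no detection on any Olig2_het array. They were Col4a4 at 6.56 in replicate 1 (highest Olig2_het value 5.05), Frem1 at 5.52 in replicate 1 (4.54), Col4a6 at 5.54 and 5.63 by 2 probes in replicate 2 (5.28 and 5.30), and Npnt by its second probe at 5.50 in replicate 3 (5.22), all in log2 intensity. Each was detected on 1 of the 6 arrays. In the other direction, an untested probe of Fbln1 was detected on no Olig2_null array (at most 5.33) and on 2 Olig2_het arrays (5.53 and 5.42). None of these signals was tested.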

How the results depend on the processing

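The median difference of the basement membrane genes stayed between 0.72 and 1.02 in all 16 alternatives, within the spread between tumours, and no gene of the list fell in any. The authors' own normalization held the same values as the setting without background correction, so the 16 alternatives count that fit under both names. The number of list genes past the threshold was 5 without background correction and 5 from the authors' own normalization. In both, 1.99% of all genes rose. Lamb1, Col15a1 and Fras1 did not pass in either (limma adjusted p = 0.0707, 0.123 and 0.0551). With an offset of 50 instead of 16, Col15a1 did not pass (limma adjusted p = 0.0724). The count was 4 when all 25697 probes were tested, where 0.705% of all genes rose. It was 5 among probes detected on all 6 arrays, which test only 18 of the genes and where 2.97% of all such genes rose. It ran from 1 to 9 with a tumour left out. Over all probes, 645 passed in the main setting, 411 without background correction, 411 from the authors' own normalization, 230 when every probe was tested, 1860 under array weights (9 genes of the list, with Dag1 added) and 9 to 1922 with a tumour left out. With the replicate block 1382 probes and 9 genes of the list passed, Hspg2 being the addition (limma adjusted p = 0.0437), and Olig2_null replicate 2 did not correlate best with its own number. Of all genes, 6.58% rose under array weights and 4.39% with the replicate block, against 2.83% in the main setting. The share of all called probes that were higher in Olig2_null was 60% in the main setting, 51.1% under array weights, 43.4% with the replicate block, 72.4%, 44.4% and 49.3% without Olig2_null replicate 2, Olig2_null replicate 3 and Olig2_het replicate 3, and 70.1% among probes detected on all arrays. Nid2 passed in all 16 alternatives. The differences of all 8 genes were smaller without background correction: 3.64 for Nid2 (12.5-fold), 1.83 for Nid1, 2.73 for Col4a1, 2.50 for Col4a2, 2.12 for Lamc1, 0.73 for Lamb1, 1.06 for Col15a1 and 0.93 for Fras1. Signals near background limit what can be said of Lamb1, Lama1, Lama4, Lamc3, Tinagl1, Col15a1 and Fras1. The causes of these changes were not tested.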
